A study of Mus musculus with 16 samples.

Results

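Megakaryocyte and platelet genes were examined in RNA-seq libraries of hematopoietic stem cells (HSCs) from mouse bone marrow. The set held 37 genes, chosen by symbol from known biology: transcription factors of the megakaryocyte lineage, platelet glycoproteins, thrombin and other agonist receptors, granule proteins, eicosanoid enzymes, signalling proteins and cytoskeletal proteins. Earlier results of these data were known when the set was chosen. All 37 were found among the 25239 genes of the count table, and 36 were among the 14124 genes that passed the filter on low counts. Gp6, the collagen receptor of platelets, had 0 counts in all 16 libraries and was not tested.

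The cells came from mice aged 4 to 6 months that carried a knockout of Selp (SelpKO, here KO) or the intact gene (SelpWT, here WT). Selp encodes P-selectin, an adhesion receptor stored in platelet granules and in the storage bodies of endothelial cells. PSGL-1, its ligand, was given to cultured HSCs at 125 ng/mL for 24 h in 3 KO and 2 WT libraries. Vehicle cultures gave 3 KO and 3 WT libraries, for a time that no source used here gives. Freshly sorted, untreated HSCs gave 2 KO and 3 WT libraries. The medium held Flt-3 ligand at 1 ng/mL, IL-11 at 20 ng/mL, SCF at 300 ng/mL and 10% fetal calf serum, and thrombopoietin was not listed in it. The labels do not say how the knockout was made, which mice gave which library, or which surface markers the sort used, and the spread behind each p-value is that between these libraries, which may be technical.

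Megakaryocytes are large marrow cells that arise from HSCs and shed platelets. Some of the genes that define them, among them the integrin gene Itga2b and the gene for von Willebrand factor, are also transcribed in HSCs themselves. Platelets bind von Willebrand factor through the glycoprotein Ib-IX-V complex and fibrinogen through the integrin made of the Itga2b and Itgb3 products. Thrombin, ADP, ATP and thromboxane then act on further receptors and cause granule release.

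The libraries held 12590539 to 24690824 counts, and levels are given in CPM, that is, counts scaled to a common library total. Selp stood at 0 to 12.4 CPM in the 8 KO libraries, against 16.8 to 183 CPM in the 8 WT libraries, which do not overlap. Of 14 markers of HSCs and of the progenitors around them, 13 were detected, with Kit at 652 ± 161, Hlf at 328 ± 45.8, Procr at 109 ± 38.7 and Slamf1 at 65.3 ± 31.4 CPM in fresh cells (SD, n = 5 libraries of both genotypes). The list holds progenitor markers too, so detection of its genes does not separate HSCs from progenitors, and fresh levels of its other genes are not given. Its 14 markers summed to 1703 to 2285 CPM in fresh cells, and 14 erythroid markers to 1563 to 2828 CPM. WT PSGL-1 replicate 1 stood apart. It had counts for 9035 genes, where the other 15 libraries had counts for 11101 to 13480, and 11 of the 37 genes were at 0 there, against 1 to 7 elsewhere. KO fresh replicates 1 and 2 also differed from each other in several of the genes, and for several values below the result without one of them is given.

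The 250 bases before a RefSeq transcript start of 3 of the genes that changed are shown here, because the results below turn on genes that moved in opposite directions. Gp9 and Mmrn1 fell in vehicle culture and Serpine2 rose. The sequences are from RefSeq (GRCm38.p6), at chr6:87777820-87778069 on the plus strand, chr6:60944067-60944316 on the plus strand and chr1:79858666-79858915 on the minus strand. The Mmrn1 and Serpine2 windows abut the gene spans given below, while the Gp9 window precedes a start that lies inside the RefSeq span of the gene. Capitals mark a match to 1 of 3 searched motifs, namely a GATA word (AGATAA or TGATAA or AGATAG or TGATAG), an ETS word (AGGAAG or CGGAAG) and the word TGANTCA, which NF-E2 shares with AP-1 factors.
Gp9: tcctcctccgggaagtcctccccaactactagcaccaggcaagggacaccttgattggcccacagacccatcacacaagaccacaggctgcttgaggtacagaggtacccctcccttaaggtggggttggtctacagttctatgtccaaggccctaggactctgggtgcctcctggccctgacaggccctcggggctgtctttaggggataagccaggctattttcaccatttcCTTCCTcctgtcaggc
Mmrn1: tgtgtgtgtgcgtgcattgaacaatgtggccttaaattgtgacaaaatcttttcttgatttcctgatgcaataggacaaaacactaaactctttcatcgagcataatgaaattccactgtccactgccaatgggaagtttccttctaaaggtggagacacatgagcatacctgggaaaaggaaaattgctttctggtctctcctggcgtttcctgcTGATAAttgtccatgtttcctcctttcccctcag
Serpine2: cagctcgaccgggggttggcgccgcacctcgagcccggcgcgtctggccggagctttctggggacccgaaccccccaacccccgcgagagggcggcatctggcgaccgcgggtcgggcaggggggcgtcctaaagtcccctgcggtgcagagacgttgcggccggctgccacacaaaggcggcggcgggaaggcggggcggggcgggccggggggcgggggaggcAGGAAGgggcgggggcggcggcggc

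In the Gp9 sequence the ETS word lies on the opposite strand and begins 16 bases before the start. In Mmrn1 a GATA word begins 34 bases before the start, and in Serpine2 an ETS word begins 25 bases before it. Both strands were searched, and words of different motifs were counted whether or not they overlapped. Promoters were matched for 31 of the 37 genes, and Nfe2, Thbs1, Rab27b, Itgb3, Gng11 and Bin2 are given by name only. A GATA word was present in 11 of the 31 genes (35.5%), against 26.5% of 32536 mouse promoter windows of the same length. An ETS word was present in 18 of 31 (58.1%), against 39.3% of all windows. The NF-E2 and AP-1 word was present in 6 of 31 (19.4%), against 6.73% of all windows. The shares of the set are per gene, over 33 windows, while those of all promoters are per window, so the units differ. Of the 6 changed genes matched, Mmrn1 held a GATA word and Gp9, Serpine2 and Zfpm1 an ETS word. None of them held the NF-E2 and AP-1 word. These are descriptions of the letters and say nothing of binding.

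In fresh HSCs the genes covered a wide range of levels. Per kilobase of exon, which allows genes to be compared, Pf4, a chemokine of the alpha granule, was highest at 329 ± 127 CPM per kb (SD, n = 5 libraries of both genotypes). Bin2, a membrane-bending protein, followed at 303 ± 27.2 CPM per kb, and Nfe2, a transcription factor required for platelet release, at 247 ± 26.9 CPM per kb. The lowest to highest libraries of each neighbouring pair overlapped, although Bin2 and Nfe2 lay more than 1 SD apart. Gng11, a G protein gamma subunit, stood at 165 ± 71.7, Fermt3, the integrin activator kindlin-3, at 164 ± 18.7, and Nrgn, a calmodulin-binding protein, at 142 ± 27.3 CPM per kb, and the libraries of these neighbours overlapped too. Cd9, Itga2b, Gp9 and Zfpm1 came next, at 98.9 to 117 CPM per kb.

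At the lower end, Tubb1, the beta-tubulin of the platelet marginal band, had no count in 14 of 16 libraries. Ppbp, the precursor of platelet basic protein, was at 3.05 ± 2.09, Alox12, the platelet 12-lipoxygenase, at 1.499 ± 1.21 and Clec1b, the podoplanin receptor CLEC-2, at 0.986 ± 0.431 CPM per kb in fresh cells. Mylk at 2.78 ± 1.19, Serpine2 at 2.44 ± 1.03 and Gucy1b1 at 0.337 ± 0.314 CPM per kb were also below Ppbp. Itgb3 at 11.1 ± 7.21 CPM per kb was well below its partner Itga2b at 112 ± 31.4. Within the glycoprotein Ib-IX-V complex, Gp9 reached 110 ± 33.3 and Gp5 52.8 ± 15.1, while Gp1ba, which carries the binding site for von Willebrand factor, was at 7.17 ± 5.36 CPM per kb. Gp1bb gave 20.8 ± 7.12 CPM per kb, but 91.1% of its exon bases overlap those of Septin5 on the same strand, so its values are uncertain.

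**Figure D1:**
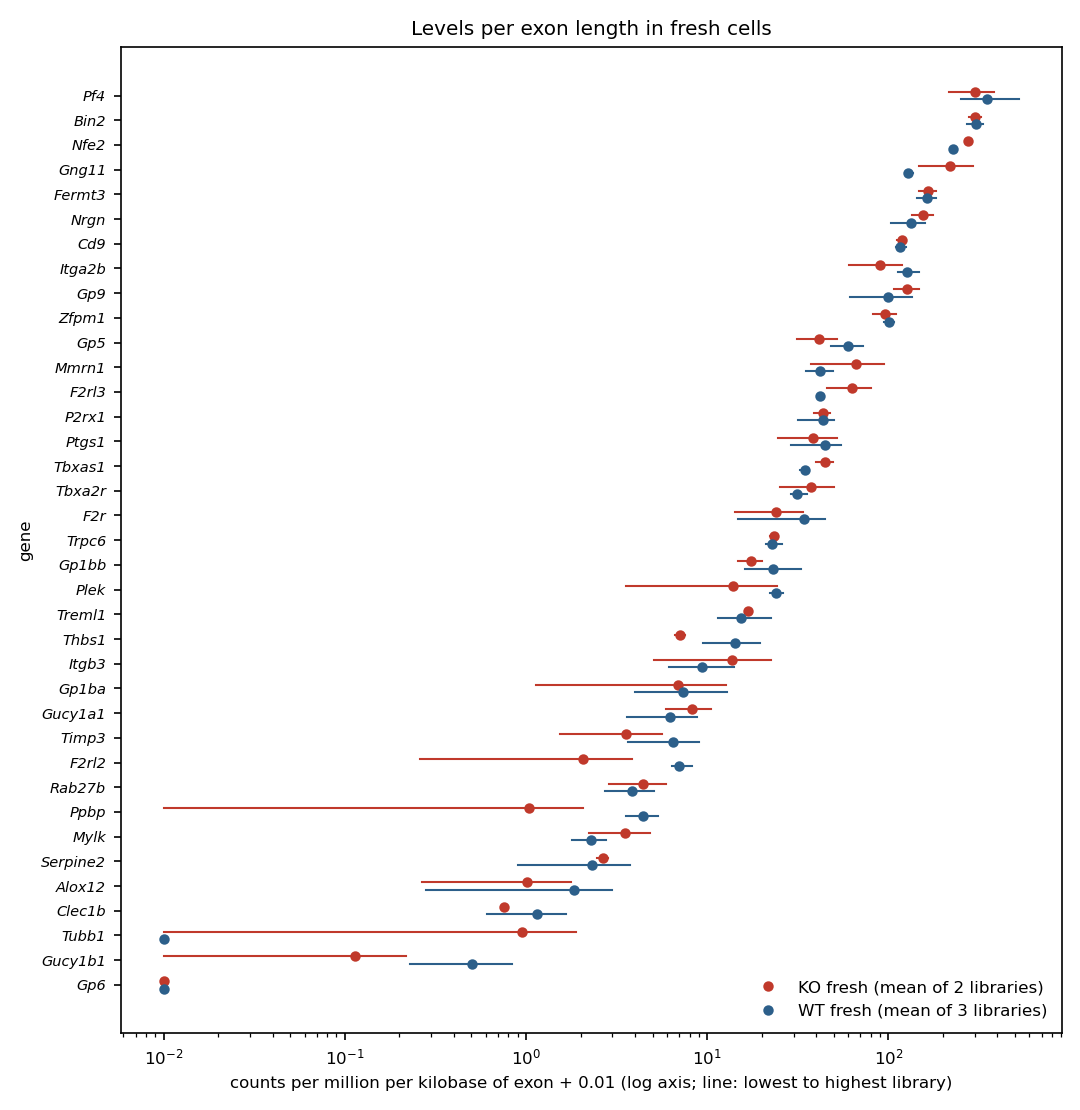
Mean level of each of the 37 genes in fresh HSCs, in CPM per kilobase of exon plus 0.01 on a log axis, with KO (mean of 2 libraries) above WT (mean of 3) in each row and lines from the lowest to the highest library. Pf4, Bin2 and Nfe2 lie at the top, and Gp6 with 0 counts at the bottom.

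The summed level of all 37 genes was 4814 to 7120 CPM in PSGL-1 cultures, 4850 to 6050 CPM in vehicle cultures and 5793 to 6980 CPM in fresh cells, and these ranges overlap. Bin2, Fermt3, Itga2b and Nfe2 together made up 46.6% to 59.3% of that sum in the 16 libraries, so the sum says little about the rarer platelet genes. The map of levels by library shows the genes one by one.

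**Figure D2:**
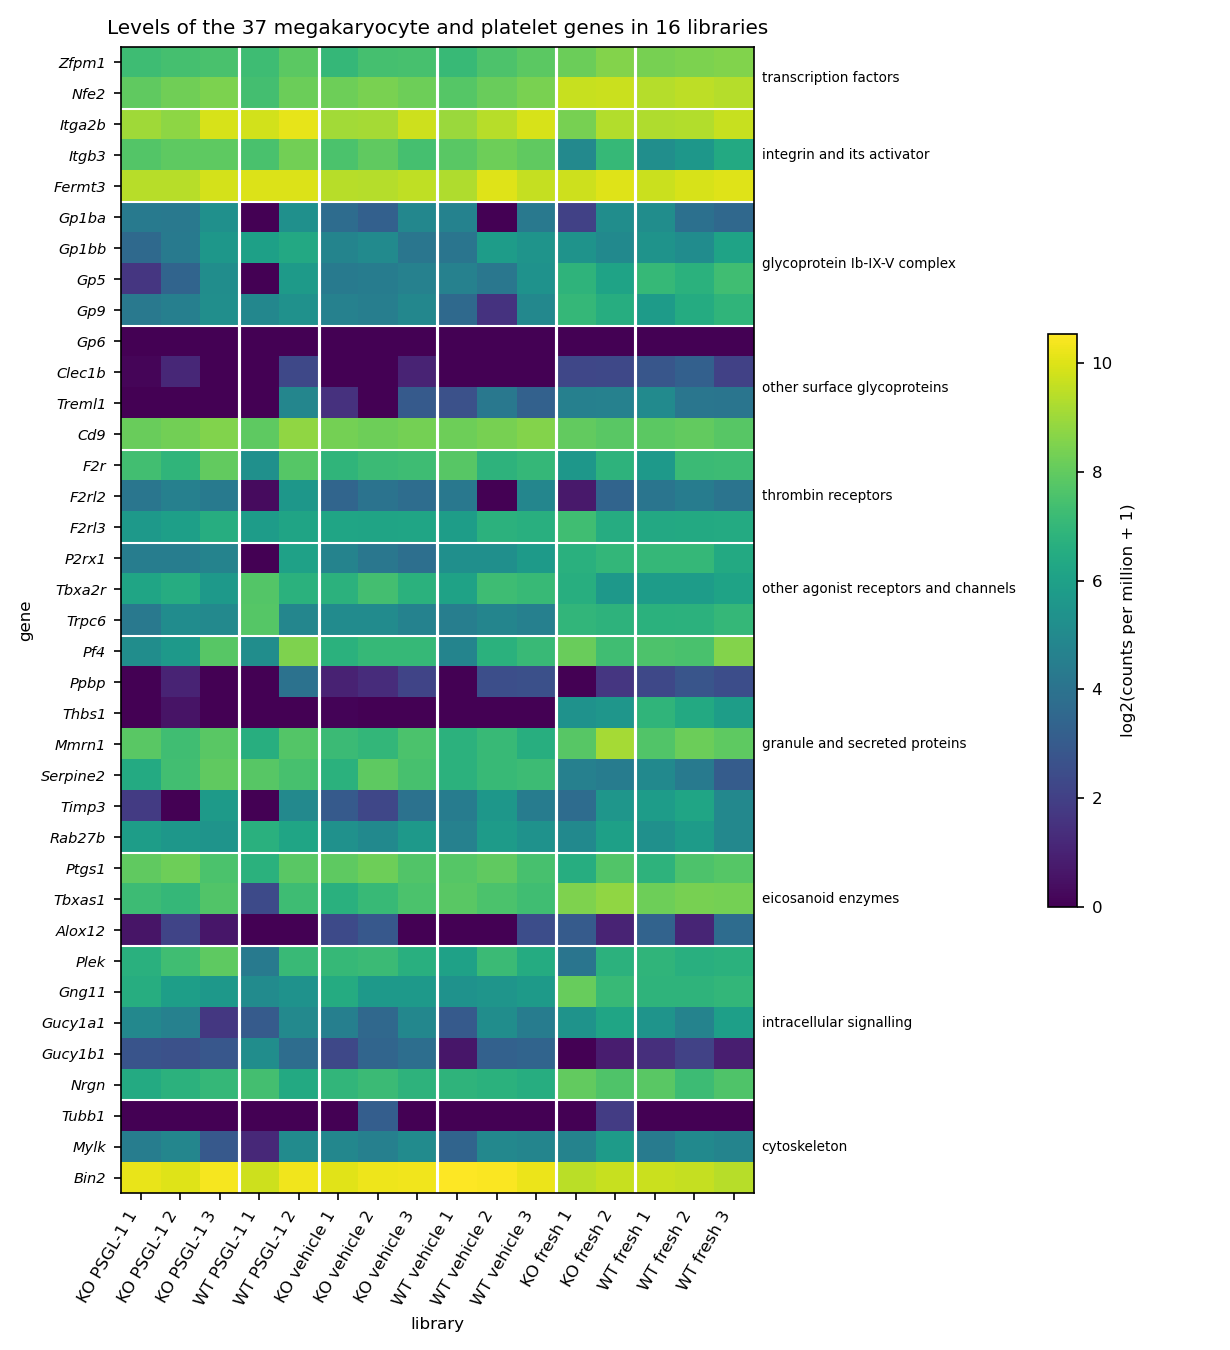
Levels of the 37 genes (rows, grouped by role) in the 16 libraries (columns, grouped by genotype and condition), as log2(CPM + 1). The Thbs1 row is lighter in the 5 fresh libraries, at 40.3 to 119 CPM, than in all cultured ones, and the column of WT PSGL-1 replicate 1 has 11 genes at 0.

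The comparison of vehicle cultures with fresh cells asks what culture itself did to these genes. Averaged over both genotypes, 11 of the 36 tested genes changed, 3 upward and 8 downward (edgeR's quasi-likelihood test, p under 0.05 after Benjamini-Hochberg adjustment over the 14124 genes). That is 30.6% of the tested genes of the set, against 6.48% of all genes tested. The set was chosen with earlier results of these data known, so the excess is a description and no test of the set. The 3 that rose stand against 4.18% of all genes tested that rose, and the 8 that fell against 2.30% that fell. Serpine2, Itgb3 and Bin2 rose. Nfe2, Thbs1, Gng11, Trpc6, Zfpm1, Mmrn1, Gp9 and Nrgn fell. The median log2 fold change was -0.34 over the 36 genes and -0.07 over all genes tested, and 36.1% of the 36 genes had a value above 0, against 46.8% of all genes tested. In bulk libraries a smaller number of cells of one type and less RNA per cell cannot be told apart.

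The libraries of the conditions were then compared one by one. For 13 of the 36 genes (36.1%) all 6 vehicle libraries lay below all 5 fresh libraries, against 5.72% of all genes tested. For 4 genes, Itgb3, Cd9, Serpine2 and Bin2 (11.1%), all vehicle libraries lay above all fresh ones, against 3.84% of all genes tested. These shares too describe a set chosen with earlier results known. Of these 17 genes, Gp5, Clec1b, P2rx1, Pf4, Tbxas1 and Cd9 did not pass with edgeR. With limma, Gp5, Clec1b, P2rx1, Tbxas1 and Cd9 passed, and with DESeq2 Clec1b did.

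**Figure D3:**
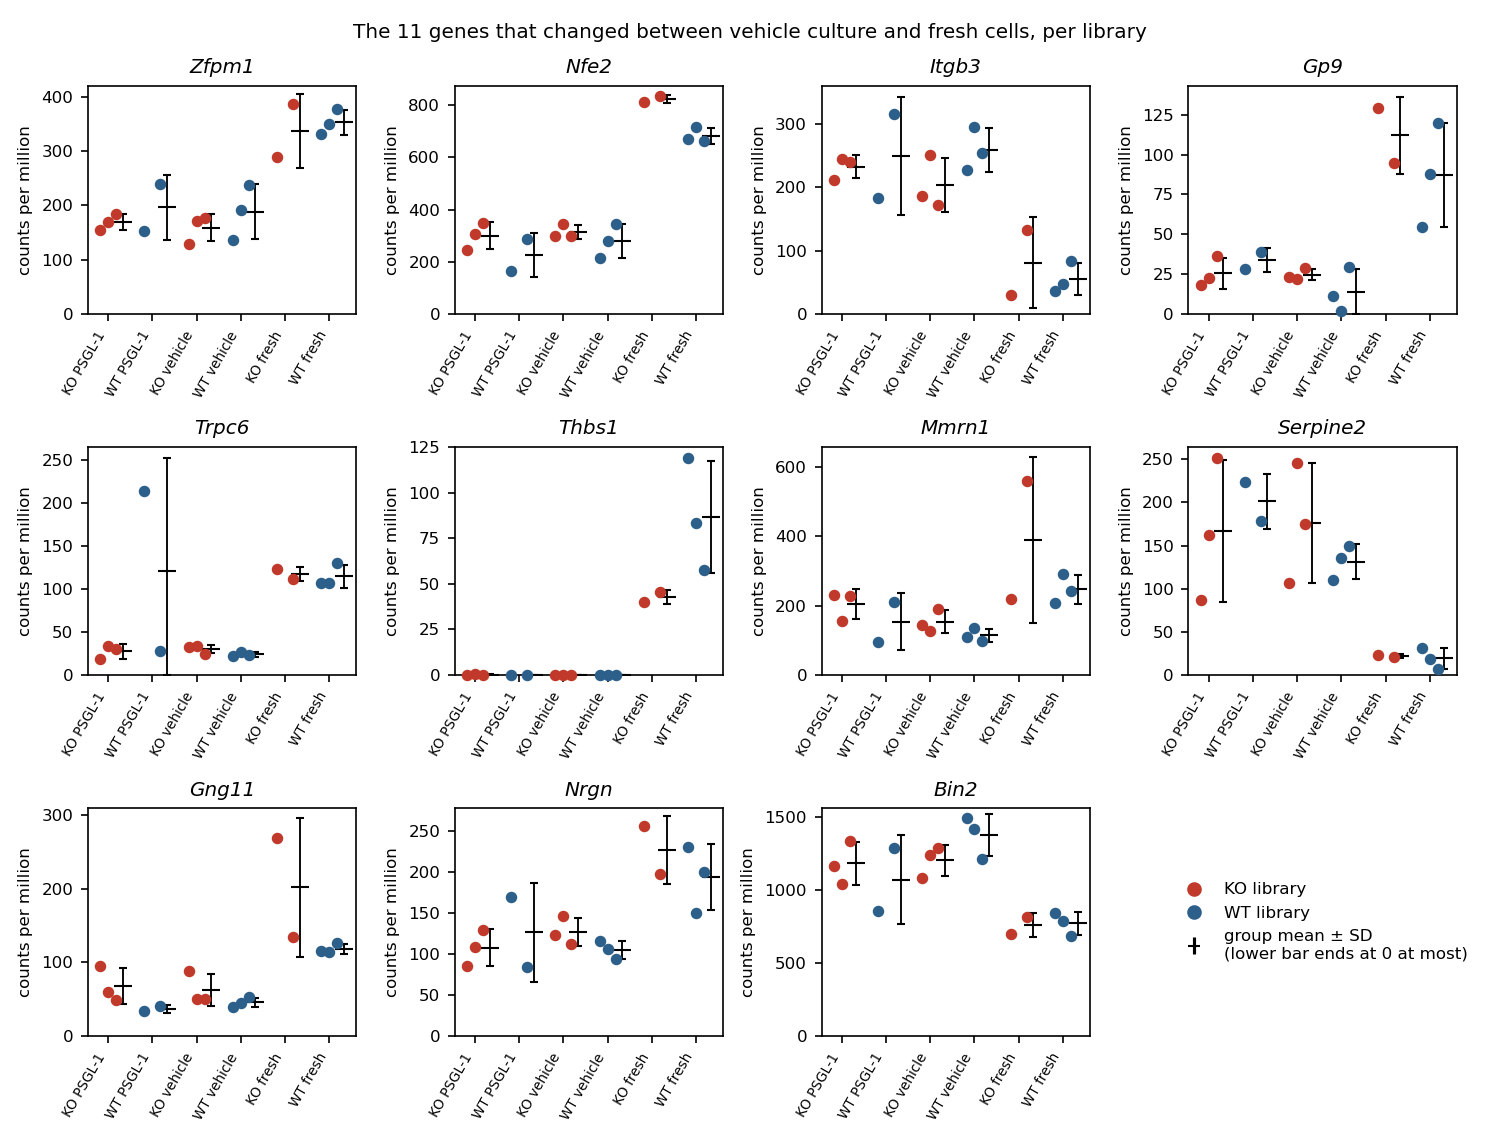
CPM of the 11 genes that changed between vehicle culture and fresh cells, 1 panel per gene, with 1 point per library, KO in red and WT in blue, and the group mean ± SD in black. Fresh libraries lie above all vehicle libraries for Nfe2, Zfpm1, Gp9, Trpc6, Thbs1, Mmrn1, Gng11 and Nrgn, and below them for Itgb3, Serpine2 and Bin2.

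Both transcription factors of the set fell. Nfe2 (chr15:103248212-103258403, GRCm38.p6, as all coordinates here) was at 297, 343 and 300.2 CPM in KO vehicle and 216, 278 and 343 CPM in WT vehicle cultures, against 812 and 834 CPM in fresh KO and 669, 716 and 661 CPM in fresh WT cells. Every vehicle library lay below every fresh one, and the log2 fold change was -1.27 (SE 0.17, edgeR adjusted p = 0.000293). Zfpm1 (chr8:122281856-122337862) encodes FOG-1, the cofactor of GATA-1 in megakaryocytes and red cell precursors. It was at 129.6, 171 and 176 CPM in KO vehicle and 136, 191 and 237 CPM in WT vehicle cultures, against 289 and 386 CPM in fresh KO and 331, 349 and 378 CPM in fresh WT cells. These groups did not overlap either, with a log2 fold change of -0.92 (SE 0.18, edgeR adjusted p = 0.00531). Cultures with PSGL-1 gave Nfe2 at 247, 306 and 348 CPM in KO and 166 and 286 CPM in WT. For Zfpm1 they gave 154, 169.97 and 184 CPM in KO and 153 and 239 CPM in WT, so both genes lay below all fresh libraries there as well.

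The integrin subunits behaved unequally. Itgb3 (chr11:104608000-104670476), the beta3 subunit, was at 186, 251 and 172 CPM in KO vehicle and 228, 295 and 253 CPM in WT vehicle cultures, against 30.1 and 132 CPM in fresh KO and 36.1, 46.8 and 83.1 CPM in fresh WT cells. It was the integrin gene that rose, with a log2 fold change of 1.86 (SE 0.32, edgeR adjusted p = 0.00243), and the groups did not overlap. Without KO fresh replicate 2, the highest fresh library, the value was 2.53. Itga2b, the alpha subunit that pairs with it on platelets, was at 544, 554 and 855 CPM in KO vehicle and 497, 677 and 949.7 CPM in WT vehicle cultures, against 331 and 652 CPM in fresh KO and 619, 639 and 802 CPM in fresh WT cells. The groups overlapped, and its log2 fold change of 0.30 (SE 0.25, edgeR adjusted p = 0.572) did not pass. Fermt3 was at 685, 670.1 and 734 CPM in KO vehicle and 629, 1034 and 777 CPM in WT vehicle cultures, against 855 and 1057 CPM in fresh KO and 827, 947 and 1056 CPM in fresh WT cells. Its groups overlapped too, with a log2 fold change of -0.27 (SE 0.14, edgeR adjusted p = 0.308).

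Among the 4 genes of the glycoprotein Ib-IX-V complex, 1 changed with edgeR, and limma also called Gp5. Gp9 (chr6:87776131-87779786) was at 23.5, 21.9 and 28.7 CPM in KO vehicle and 11.1, 1.89 and 29.3 CPM in WT vehicle cultures, against 129 and 94.96 CPM in fresh KO and 54.4, 87.6 and 119.5 CPM in fresh WT cells. It fell with a log2 fold change of -2.33 (SE 0.52, edgeR adjusted p = 0.0135) and without overlap. Without KO fresh replicate 1 the adjusted p was 0.0549. Gp5 averaged 24.1 ± 8.197 CPM in vehicle cultures (SD, n = 6) and 116 ± 33.2 CPM in fresh cells (SD, n = 5), also without overlap, but its log2 fold change of -2.14 (SE 0.92) had an edgeR adjusted p of 0.204. Gp1ba spanned 0 to 28.6 CPM in vehicle cultures and 3.07 to 35.1 CPM in fresh cells, and Gp1bb spanned 16.2 to 55.2 CPM in vehicle cultures and 30.8 to 68.4 CPM in fresh cells. Both genes overlapped between the conditions.

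None of the 3 tested genes among the other surface glycoproteins changed with edgeR, while limma called Cd9, Clec1b and Treml1 and DESeq2 called Clec1b. Cd9, a tetraspanin of platelets and many other cells, was at 322, 295 and 322 CPM in KO vehicle and 296, 334 and 382 CPM in WT vehicle cultures, against 257 and 227 CPM in fresh KO and 234, 256 and 224 CPM in fresh WT cells. All vehicle libraries lay above all fresh ones, but the log2 fold change was 0.50 (SE 0.17, edgeR adjusted p = 0.0951). Clec1b had counts in 1 of 6 vehicle libraries, at 1.05 CPM, and in all 5 fresh libraries, at 3.08 to 8.42 CPM (edgeR adjusted p = 0.108). Treml1, a receptor of the platelet alpha granule, spanned 0 to 17.6 CPM in vehicle cultures and 16.1 to 31.6 CPM in fresh cells.

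The thrombin receptor genes did not pass the test. F2r, which encodes PAR1, spanned 112 to 221 CPM in vehicle cultures and 47.3 to 149 CPM in fresh cells. F2rl3, which encodes PAR4, the receptor through which thrombin signals in mouse platelets, spanned 57.7 to 108 CPM in vehicle cultures and 81.5 to 159 CPM in fresh cells. F2rl2, which encodes its cofactor PAR3, spanned 0 to 27.8 CPM in vehicle cultures and 0.626 to 20.6 CPM in fresh cells. Each gene overlapped between the conditions. The log2 fold changes were 0.69 for F2r (SE 0.42), -0.30 for F2rl3 (SE 0.25) and 0.65 for F2rl2 (SE 1.21).

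Of the 3 other agonist receptors and channels, Trpc6 (chr9:8543867-8680752), a calcium-permeable channel gated by diacylglycerol, changed. It was at 33.003, 33.4 and 24.5 CPM in KO vehicle and 21.6, 27.1 and 23.1 CPM in WT vehicle cultures, against 124 and 112 CPM in fresh KO and 107, 108 and 130.3 CPM in fresh WT cells. The conditions were far apart and each was narrow, and the log2 fold change was -2.05 (SE 0.39, edgeR adjusted p = 0.0045). P2rx1, the ATP-gated channel of platelets, averaged 30.4 ± 14.6 CPM in vehicle cultures (SD, n = 6) and 114 ± 20.7 CPM in fresh cells (SD, n = 5) without overlap, with a log2 fold change of -1.96 (SE 0.82, edgeR adjusted p = 0.189). Tbxa2r, the thromboxane receptor, averaged 122 ± 36.1 CPM in vehicle cultures and 64.7 ± 18.8 CPM in fresh cells, with a log2 fold change of 0.95 (SE 0.30, edgeR adjusted p = 0.0785). Its libraries overlapped.

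Of the 7 genes of granule and secreted proteins, 1 rose and 2 fell. Serpine2 (chr1:79794317-79858665), which encodes the thrombin inhibitor protease nexin-1, was at 106, 245 and 176 CPM in KO vehicle and 109.6, 135 and 149 CPM in WT vehicle cultures, against 23.4 and 20.3 CPM in fresh KO and 31.0, 19.1 and 7.44 CPM in fresh WT cells. Its log2 fold change of 2.95 (SE 0.39, edgeR adjusted p = 0.000282) was the largest rise among the 11 genes that changed, and the groups did not overlap. In each genotype alone it passed with edgeR as well, with 3.03 in KO (SE 0.59, edgeR adjusted p = 0.0126; limma 2.86, adjusted p = 0.149) and 2.87 in WT (SE 0.49, edgeR adjusted p = 0.00769).

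Thbs1 (chr2:118111876-118127133), which encodes the adhesive glycoprotein thrombospondin-1, was at or near 0 after culture. It had 1 count in 1 KO vehicle library and 0 in the other KO and all WT vehicle libraries, against 40.3 and 45.6 CPM in fresh KO and 119, 83.6 and 57.5 CPM in fresh WT cells. With a floor of 3 counts per library, WT vehicle cultures were at least 443-fold lower than fresh WT cells. In KO the fresh level was 2306 times that of the vehicle cultures, with a 95% counting interval of 414 to 91100 (exact Poisson, for counting error alone). The edgeR adjusted p over both genotypes was 0.000319. PSGL-1 cultures also had 0 counts in 4 of 5 libraries, with 0.479 CPM in the other.

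Mmrn1 (chr6:60944317-60989378), which encodes multimerin-1, a carrier of factor V in the alpha granule, was at 145, 126 and 190.2 CPM in KO vehicle and 109.6, 135 and 97.1 CPM in WT vehicle cultures, against 219.9 and 558 CPM in fresh KO and 206, 291 and 242 CPM in fresh WT cells. It fell without overlap, with a log2 fold change of -1.15 (SE 0.25, edgeR adjusted p = 0.011). Without KO fresh replicate 2, the highest library, the value was -0.77 (adjusted p = 0.0772). Pf4 was at 106, 134 and 132 CPM in KO vehicle and 26.1, 105 and 139 CPM in WT vehicle cultures, against 277 and 156 CPM in fresh KO and 192, 182 and 380.1 CPM in fresh WT cells. All vehicle libraries were lower than all fresh ones, but its log2 fold change of -1.09 (SE 0.58) had an edgeR adjusted p of 0.329. The remaining genes of this role, Ppbp, Timp3 and Rab27b, overlapped between the conditions. Timp3, an inhibitor of matrix proteases, shares 21.3% of its exon bases with Syn3 on the opposite strand, and no source used here gives the strand setting of the counts.

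The eicosanoid enzymes did not pass with edgeR, while limma called Tbxas1. Ptgs1, the cyclooxygenase of platelets, was at 241, 296 and 207 CPM in KO vehicle and 217, 252 and 177 CPM in WT vehicle cultures, against 94.9 and 202 CPM in fresh KO and 113, 191 and 214 CPM in fresh WT cells. Tbxas1, the thromboxane synthase, was at 104, 137 and 188 CPM in KO vehicle and 228, 189 and 156 CPM in WT vehicle cultures, against 362 and 449 CPM in fresh KO and 295, 333 and 322 CPM in fresh WT cells. Ptgs1 overlapped between the conditions and Tbxas1 did not. Their log2 fold changes were 0.61 (SE 0.25, edgeR adjusted p = 0.186) and -1.05 (SE 0.51, edgeR adjusted p = 0.274). Alox12 stayed at 12.1 CPM or less in every fresh and vehicle library.

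Of the 5 intracellular signalling genes, 2 fell. Gng11 (chr6:4003987-4008445) was at 87.9, 50.4 and 49.8 CPM in KO vehicle and 40.1, 44.6 and 52.8 CPM in WT vehicle cultures, against 269 and 135 CPM in fresh KO and 115, 114 and 126 CPM in fresh WT cells. The conditions did not overlap, and the log2 fold change was -1.48 (SE 0.27, edgeR adjusted p = 0.00322). Nrgn (chr9:37544493-37552745) was at 123, 146 and 112 CPM in KO vehicle and 116, 107 and 93.9 CPM in WT vehicle cultures, against 256 and 197 CPM in fresh KO and 231, 151 and 200.5 CPM in fresh WT cells. It fell by 0.80 on the log2 scale (SE 0.21, edgeR adjusted p = 0.0311), without overlap. It no longer passed in 8 of the 16 fits that leave out 1 library, namely WT fresh replicate 1 or 3, KO fresh replicate 1, any WT vehicle replicate, and KO vehicle replicate 1 or 3, with an edgeR adjusted p of 0.0517 to 0.152. Plek, the protein kinase C substrate pleckstrin, and Gucy1a1 and Gucy1b1, the subunits of the nitric oxide receptor guanylate cyclase, did not pass with edgeR. DESeq2 called Gucy1b1. Gucy1a1 averaged 20.6 ± 10.4 CPM in vehicle cultures and 48.9 ± 18.8 CPM in fresh cells, while Gucy1b1 averaged 7.59 ± 4.52 CPM in vehicle cultures and 1.32 ± 1.23 CPM in fresh cells (SD, n = 6 vehicle and 5 fresh libraries).

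Among the cytoskeletal genes, Bin2 (chr15:100641082-100669503) rose. It was at 1086, 1244 and 1288 CPM in KO vehicle and 1494, 1423 and 1217 CPM in WT vehicle cultures, against 702 and 819 CPM in fresh KO and 841, 786 and 689 CPM in fresh WT cells. The groups did not overlap, with a log2 fold change of 0.82 (SE 0.13, edgeR adjusted p = 0.00127). Mylk, the myosin light chain kinase, spanned 9.53 to 33.1 CPM in vehicle cultures and 20.2 to 54.3 CPM in fresh cells. Tubb1 had counts in 1 vehicle and 1 fresh library.

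Taken genotype by genotype, 4 of the 36 genes changed in KO (11.1%), against 1.77% of all genes tested, and 5 changed in WT (13.9%), against 1.64% of all genes tested. Serpine2 passed with edgeR in both. Nfe2 fell by 1.36 in KO (SE 0.25, edgeR adjusted p = 0.01) and by 1.19 in WT (SE 0.23, edgeR adjusted p = 0.0152). Thbs1 passed in both. Gng11 passed in KO, with a log2 fold change of -1.68 (SE 0.39, edgeR adjusted p = 0.041), and was at -1.27 (SE 0.36, edgeR adjusted p = 0.111) in WT. The call of Gng11 in KO was lost in 8 of the 16 fits that leave out 1 library, with the compared groups alone (adjusted p = 0.0977), and with either replicate block (adjusted p = 0.0717 and 0.0518). Itgb3 at 2.32 (SE 0.43, edgeR adjusted p = 0.0119) and Bin2 at 0.93 (SE 0.17, edgeR adjusted p = 0.0123) passed in WT. In KO, Itgb3 did not pass, and Bin2 was at 0.70 (SE 0.20, edgeR adjusted p = 0.0938).

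The counts within a genotype moved with single libraries, and so did those over all genes. In KO, 0 members and 76 genes in all passed without KO fresh replicate 1, against 4 members and 250 genes with every library, and Gng11 was then at -1.02. Without KO vehicle replicate 1, 2 or 3 in turn, 2 members passed each time, with 128, 150 and 135 genes in all. Without WT PSGL-1 replicate 1, 10 members and 554 genes passed, and without WT PSGL-1 replicate 2, 10 members and 548 genes. In WT, 3 members and 122 genes passed when WT vehicle replicate 1 was left out, and 1 member and 85 genes when WT fresh replicate 2 was, against 5 members and 231 genes with every library. Of the 9 calls within a genotype, Thbs1 in WT kept its call in all 16 fits. Without KO fresh replicate 1 the adjusted p in KO was 0.0711 for Nfe2, 0.123 for Serpine2 and 0.052 for Thbs1, while the log2 fold changes of Nfe2 at -1.32 and Serpine2 at 3.20 were close to those with every library. Without WT fresh replicate 2 that in WT was 0.0641 for Nfe2, 0.0785 for Itgb3, 0.0532 for Serpine2 and 0.0655 for Bin2. Over both genotypes the count stayed between 9 and 16 in all 16 fits.

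**Figure D4:**
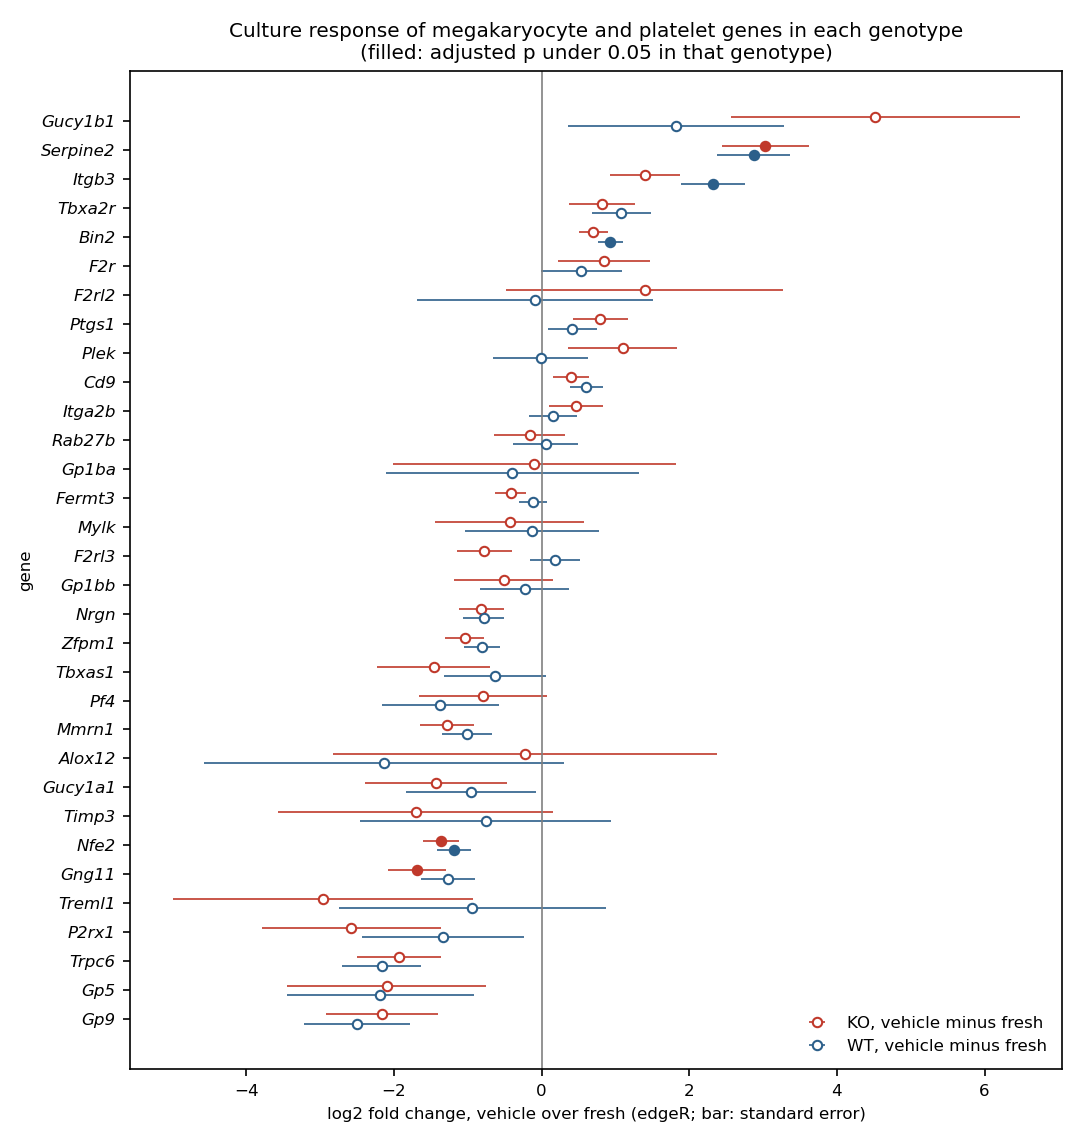
Log2 fold change of vehicle over fresh cells with its standard error for 32 of the genes, KO above WT in each row and filled where the adjusted p was under 0.05 in that genotype. Gp6, Clec1b, Ppbp, Thbs1 and Tubb1 are left out, because a group was at 0 or both conditions were under 5 CPM. Serpine2 lies farthest to the right among filled points, at 3.03 in KO and 2.87 in WT.

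The test of the difference between genotypes in this response called 0 of the 36 genes, and 0% of all genes tested (edgeR). At an unadjusted p under 0.05 it also found 0 of the 36, and DESeq2 and limma each called 0. The smallest p belonged to F2rl3, at -0.96 on the log2 scale (SE 0.51, edgeR unadjusted p 0.0784 and adjusted p = 1). For Itgb3 the difference, KO minus WT, was -0.92 (SE 0.61, edgeR adjusted p = 1).

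Some markers of other blood lineages moved with culture as well. The summed level of 12 granulocyte and monocyte markers was 123 to 424 CPM in vehicle cultures and 772 to 1347 CPM in fresh cells, with no marker at 0 throughout, and of 12 tested Prtn3 and Lyz2 fell (edgeR). That of 14 erythroid markers was 606 to 1186 CPM in vehicle cultures and 1563 to 2828 CPM in fresh cells, with the 4 globin genes Hba-a1, Hba-a2, Hbb-bt and Hbb-bs at 0 in every library. Of 8 tested, Car2 fell and Tfrc rose. That of 7 T and NK cell markers was 10.2 to 21.6 CPM in vehicle cultures and 41.0 to 103 CPM in fresh cells, with Cd3e, Cd3g, Cd8a and Ncr1 at 0 throughout, and of 3 tested Klrb1c fell. Sums for 8 endothelial and stromal markers were 50.1 to 86.2 CPM in vehicle cultures and 18.4 to 136 CPM in fresh cells, and those for 6 B cell markers were 14.6 to 62.0 CPM in vehicle cultures and 38.2 to 56.4 CPM in fresh cells, with Ms4a1 and Ebf1 at 0. The 8 mast cell and basophil markers summed to 0 to 9.93 CPM in vehicle cultures and 1.88 to 11.003 CPM in fresh cells, with Ms4a2, Prss34, Cma1 and Tpsb2 at 0. These last 3 sums overlapped between the conditions, and edgeR called none of the tested genes in them. The 14 HSC and progenitor markers summed to 1647 to 2648 CPM in vehicle cultures and 1703 to 2285 CPM in fresh cells, with Il7r at 0. These sums overlapped, while of 13 genes tested Ly6a at 2.14 and Cd34 at 1.48 rose and Kit at -0.94 and Mllt3 at -1.44 fell, with a median log2 fold change of -0.96. The part of these shifts in the culture results of the platelet genes was not tested.

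Further genes of the same pathways, from lists drawn up by function, gave the surroundings of this response. Of 117 listed genes 111 were tested, and 10 rose and 12 fell in vehicle cultures (19.8%), against 6.48% of all genes tested. Over all genes tested, 4.18% rose and 2.30% fell. These lists too were chosen with earlier results of these data known, so their counts are descriptions. Among 18 transcription factors of the megakaryocyte lineage none rose and 3 fell, namely Lmo2 at -1.25 (edgeR adjusted p = 5e-05), Meis1 at -0.96 and Gata2 at -0.80. In thrombopoietin signalling, of 9 tested genes, the feedback regulators Socs3 at 2.60 and Sh2b3 at 1.11 rose, while the STAT5 target Cish fell by 3.28 on the log2 scale. Of 17 tested surface receptors, the granule membrane protein Cd63 rose by 1.28 and Cd84 fell by 2.08 on the log2 scale. Of 26 tested signalling genes, Plcg2 at 0.95 and Pla2g4a at 1.09 rose, and Rasa3 fell by 1.08. Of 16 tested cytoskeletal genes 4 rose and none fell, and the 3 with the smallest adjusted p were Tagln2 at 0.74, Myh9 at 1.20 and Tuba4a at 0.65. Of 25 genes of granule cargo and granule formation, Tgfb1 rose by 0.78 and 5 fell. Those with the smallest adjusted p were Slc18a2, the amine transporter of dense granules, at -3.71 (SE 0.50, edgeR adjusted p = 0.00032), Vwf at -1.32 and Srgn, the granule proteoglycan, at -0.77.

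The comparison of KO with WT cells asks what the loss of Selp did to these genes. None of the 36 tested genes changed in fresh cells, in vehicle cultures or in PSGL-1 cultures, against 0.00708% of all genes tested in each of these comparisons, nor in the mean of the 3 conditions, against 0.0354% of all genes tested (edgeR). These shares moved with single libraries, to 83 genes in fresh cells without KO fresh replicate 2, and to 2979 genes with PSGL-1 and 2272 in the mean without WT PSGL-1 replicate 2. At an unadjusted p under 0.05 there were 1, 0, 5 and 5 of the 36 genes in these 4 comparisons. DESeq2 called 0, 0, 2 and 1 of them, with Treml1 and Trpc6 in PSGL-1 cultures and Treml1 in the mean, and limma called 0 in each. The median log2 fold change over the 36 genes was 0.05 in fresh cells, 0.06 in vehicle cultures, -0.17 in PSGL-1 cultures and 0.00 in the mean.

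The smallest p in the mean of the 3 conditions belonged to Gng11. It was at 269 and 135 CPM in fresh KO cells, against 115, 114 and 126 CPM in fresh WT cells, and at 94.9, 59.9 and 48.4 CPM in KO PSGL-1 cultures, against 33.4 and 40.5 CPM in WT PSGL-1 cultures. KO was higher without overlap in these conditions, while vehicle cultures overlapped. The mean log2 fold change was 0.71 (SE 0.22, unadjusted p = 0.00613, edgeR adjusted p = 0.611), and 0.49 without KO fresh replicate 1. Treml1 came next, at -4.17 (SE 1.35, unadjusted p = 0.00868, edgeR adjusted p = 0.611), a fitted value that includes a KO group at 0. Mmrn1 at 0.50 (SE 0.21), Gp1bb at -0.83 (SE 0.38) and Itga2b at -0.43 (SE 0.20) had edgeR adjusted p-values of 0.692 to 0.729. Mmrn1 was at 0.26 without KO fresh replicate 2.

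The KO and WT libraries did not overlap for 8 of the 36 genes in fresh cells (22.2%), against 19.1% of all genes tested. For vehicle cultures this held for P2rx1 and Timp3 (5.56%), against 9.49% of all genes tested, and for PSGL-1 cultures for 7 genes (19.4%), against 17.8%. These shares lay close to or below those of all genes tested, and are no result about the set. No gene was separated in the same direction in both fresh cells and vehicle cultures. P2rx1 was at 25.5, 16.9 and 13.3 CPM in KO vehicle cultures, against 37.3, 37.006 and 52.3 CPM in WT vehicle cultures, but overlapped in fresh cells, with 102 and 125 CPM in KO and 131, 129 and 83.5 CPM in WT. Among the 111 further genes listed by function, Clu, which encodes the granule protein clusterin, rose in KO, with a mean log2 fold change of 1.67 (SE 0.22, edgeR adjusted p = 0.00667).

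The comparison of PSGL-1 with vehicle cultures asks whether the ligand acted on these genes. It shares the vehicle libraries with the culture comparison. None of the 36 genes changed in KO or in WT, against 0% of all genes tested in each (edgeR), and 2 in KO and 3 in WT had an unadjusted p under 0.05. DESeq2 called Treml1 in KO and Trpc6 in WT, and limma called 0 in each. The median log2 fold change was 0.01 in KO and 0.04 in WT. The difference of the PSGL-1 response between the genotypes was not called for any of the 36 genes either, against 0% of all genes tested (edgeR). There, 3 had an unadjusted p under 0.05, DESeq2 called Treml1, and limma called 0.

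The Trpc6 value in WT rested on 1 library. Trpc6 was at 18.1, 34.1 and 30.6 CPM in KO PSGL-1 cultures, against 33.003, 33.4 and 24.5 CPM in KO vehicle cultures. It was at 214 and 27.8 CPM in WT PSGL-1 cultures, against 21.6, 27.1 and 23.1 CPM in WT vehicle cultures. The value of 214 CPM came from the sparse library, WT PSGL-1 replicate 1. That library also held Tbxa2r at 213 CPM, against 106 CPM in the other WT PSGL-1 library, and Tbxas1 at 4.10 CPM, against 152 CPM.

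Treml1 was at 0 in all 3 KO PSGL-1 libraries, against 1.80, 0 and 7.01 CPM in KO vehicle cultures. In WT it was at 0 and 27.7 CPM with PSGL-1, against 5.15, 17.6 and 8.76 CPM with vehicle. The genotypes overlap at 0 with PSGL-1, where the 0 in WT belongs to the sparse library. Pf4 spread widely with PSGL-1, at 34.8, 49.6 and 219.8 CPM in KO and 35.0 and 363 CPM in WT, so that the PSGL-1 libraries spanned both the vehicle and the fresh levels.

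The other genes given above by library had these values with PSGL-1. Itgb3 was at 212, 245 and 239.9 CPM in KO and 183 and 315 CPM in WT, and Serpine2 at 87.5, 162 and 252 CPM in KO and 224 and 179 CPM in WT. Bin2 was at 1168, 1045 and 1338 CPM in KO and 857 and 1289 CPM in WT, and Gp9 at 17.99, 22.4 and 36.2 CPM in KO and 28.5 and 39.2 CPM in WT. All PSGL-1 libraries therefore lay on the same side of the fresh libraries as the vehicle cultures did for these 4 genes. Mmrn1 was at 230.01, 156 and 229 CPM in KO and 96.1 and 211 CPM in WT with PSGL-1, and Nrgn at 85.1, 109 and 129.9 CPM in KO and 169 and 83.8 CPM in WT. These overlapped the fresh range. Itga2b was at 530.2, 427 and 953 CPM in KO and 903 and 1155 CPM in WT, Fermt3 at 679, 673 and 923 CPM in KO and 1029 and 1027 CPM in WT, and Cd9 at 283, 310.3 and 378 CPM in KO and 245 and 449.5 CPM in WT. Ptgs1 was at 251, 299 and 189 CPM in KO and 105 and 226 CPM in WT, and Tbxas1 in KO at 148, 129.6 and 207 CPM. Fermt3 was separated between KO and WT with PSGL-1, at a log2 fold change of -0.45 (SE 0.21, edgeR adjusted p = 0.765).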

How the data were processed

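The authors deposited raw read counts per gene, 1 column per library for 16 bulk RNA-seq libraries of mouse HSCs. RNeasy Plus Micro columns gave the RNA, per the labels' protocols, and full-length cDNA was amplified with Takara's SMART Ultra-Low Input kit v4. Per the submitters' processing notes, the tools were STAR 2.7.5c, featureCounts, MultiQC 1.10 and DESeq2 with build mm10. No source used here gives the annotation, the strand setting or how reads with several matches were counted. No molecular identifiers are described, so intervals and floors cover counting error only.

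The groups were taken from the labels. Of 25239 genes, 14124 passed edgeR's filterByExpr by group. Totals of 12590539 to 24690824 counts were scaled with TMM factors (trimmed mean of M values), and 1 robust quasi-likelihood model with a mean per group was fitted to all 16 libraries, with a common biological coefficient of variation of 0.977. In 11 comparisons, a gene counted as changed at p under 0.05 after Benjamini-Hochberg adjustment over the 14124 genes. The SE of a log2 fold change is its size over the root of F. Levels in CPM use library totals, and levels per kilobase use exon lengths of GENCODE vM21, in which a union of exons overstates the length of genes with unused exons. Coordinates and promoters are from RefSeq, GRCm38.p6. Versions were DESeq2 1.42.0, limma 3.58.1, edgeR 4.0.16 and R 4.3.3. The script was tested on simulated counts.

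The members and lists were chosen with earlier results of these data known. Values in every library are given for members that passed in at least 1 comparison and for the 12 members with the highest mean CPM, and up to 3 passing genes per direction from each other list. Library values of other genes were chosen after they were seen. A gene of the other lists is counted but its own result is not reported here. Alternatives were DESeq2, limma voom with quality weights, RLE size factors, no filter on low counts, the compared groups alone, replicate blocks, leaving out each library, and, added after seeing the data, DESeq2 without the sparse library. No pair of libraries in a group agreed within sampling noise.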

Additional observations from a re-analysis of the deposited data

How the results depend on the processing

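The counts of changed members depended on the tool more than the directions did. In the vehicle against fresh comparisons, where edgeR called 4 members in KO, 5 in WT and 11 in the mean of both genotypes, DESeq2 called 9, 11 and 14, limma called 11, 10 and 17, and DESeq2 with WT PSGL-1 replicate 1, the sparse library, left out (chosen after seeing the data) called 15, 15 and 18. With the compared groups alone, KO had 7. Where edgeR called 0, DESeq2 called 2 members for KO against WT with PSGL-1, 1 in the mean of 3 conditions, 1 for PSGL-1 against vehicle in KO and 1 in WT, and 1 for the difference between genotypes in that response. DESeq2 without the sparse library called 1 for KO against WT with vehicle, 1 with PSGL-1 and 2 in the mean, and 1 for PSGL-1 against vehicle in KO and 1 for the difference between genotypes. Leaving out 1 library at a time gave 0 to 10 members in KO, 1 to 7 in WT and 9 to 16 in the mean for vehicle against fresh. KO against WT gave 0 to 0 in fresh cells and with vehicle, 0 to 11 with PSGL-1 and 0 to 8 in the mean. PSGL-1 against vehicle gave 0 to 0 in KO, 0 to 10 in WT and 0 to 7 for the difference between genotypes. The upper ends of 11, 8, 10 and 7 came without WT PSGL-1 replicate 2, which leaves the sparse library alone in its group, assumed to vary like the other groups. Over all pairs of groups, libraries with the same replicate number shared little. Their deviations correlated with a median of 0.0057 over 36 pairs, and 0.0046 for sets of library numbers. None of either exceeded 0.1. A set here is a run of 6 consecutive library numbers, a grouping that the labels do not state. Between vehicle and PSGL-1 cultures, KO libraries of the same number correlated at 0.0546, 0.071 and 0.0608, and those of unlike numbers at -0.0512 to -0.0167. WT libraries there correlated at 0.0517 and 0.0784 within a set, and at 0.00845 and -0.0517 with the same title number. The WT PSGL-1 group has 2 libraries, whose deviations from their mean are equal and opposite. The 0.0517 and -0.0517 are therefore 1 value with its sign reversed, and do not separate the numberings. Within a set the values between vehicle and PSGL-1 cultures were small and all positive. With the title number as a replicate block, vehicle against fresh called 4 in KO, 6 in WT and 11 in the mean, and with the set of library numbers as the block 3, 5 and 12. Blocks called 0 members in every other comparison. Over all genes, vehicle against fresh called 250 in KO, 231 in WT and 915 in the mean with edgeR, 831, 797 and 1780 with DESeq2, 542, 706 and 1896 with limma and 1295, 1286 and 2542 with DESeq2 and the sparse library left out. Without 1 library at a time, all-gene counts with edgeR were 76 to 554 in KO, 85 to 440 in WT and 552 to 1566 in the mean for vehicle against fresh. For KO against WT they were 1 to 83 in fresh cells, 1 to 8 with vehicle, 1 to 2979 with PSGL-1 and 4 to 2272 in the mean. For PSGL-1 against vehicle they were 0 to 0 in KO and 0 to 2955 in WT. For the difference between genotypes they were 0 to 31 in the culture response and 0 to 2370 in the PSGL-1 response. The shares of all genes printed beside the main counts move with them. The 83 and the 31 came without KO fresh replicate 2, and the 2979, 2272, 2955 and 2370 without WT PSGL-1 replicate 2. In the other comparisons DESeq2 called 41 to 250 genes, against 0 to 5 with edgeR and every library. For the 20 member results that passed in the culture comparisons, 441 of 480 alternatives kept direction and call, 39 lost the call and 0 reversed. In the mean of both genotypes, Zfpm1, Nfe2, Itgb3, Trpc6, Thbs1, Serpine2, Gng11 and Bin2 passed in all 16 fits without 1 library. Clec1b, Ppbp, Alox12 and Tubb1 were low, with under 15 CPM in every library. They were at 0 in 7, 5, 5 and 14 of the 16 libraries, in that order. The causes of these differences were not tested.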
